A study of Rattus norvegicus with 12 samples.

Results

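Fas, Tnfrsf1a, Casp8, Bid, Bax, Bcl2, Bcl2l1, Apaf1 and Casp9 are the core genes of the extrinsic and mitochondrial routes to apoptosis. They were described here in the cerebral cortex of rat pups after neonatal hypoxia-ischemia. The 9 genes were chosen by symbol, and every array probe whose accession names one of them was used. They were 9 of 12206 genes with a symbol and 14 of 41012 probes, and 13 of the 14 probes were bright enough to be tested. The exception, 1 of 4 probes for Bcl2l1, was not well above background on any of the 12 arrays.

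Cortical RNA of 12 Wistar pups, 3 in each of 4 groups, was hybridised to Agilent Whole Rat Genome arrays with a single dye, each array holding 1 pup. In the Rice group, the left carotid artery was cut between ligatures at 7 days of age, and after 1 to 2 h of recovery the pups breathed 8% oxygen for 1 h at 33 °C. These pups were injected intraperitoneally with 100 µl of normal saline (Rice + saline) or with 9 mg/kg of MCI-186 in normal saline (Rice + MCI-186), and again 30 min later. MCI-186 is edaravone, a free radical scavenger. Controls had no insult and received an injection of saline (Control + saline) or of the same dose of MCI-186 (Control + MCI-186). The cortex on the ligated side, or the same side in controls, was taken, and the labels give an age of 2 weeks. Whether controls had sham surgery or a second injection is not stated.

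Apoptosis is programmed cell death carried out by caspases. In the extrinsic route, ligands bind death receptors such as FAS and TNFR1, which assemble a complex that activates caspase-8, and caspase-8 can cut BID. In the mitochondrial route, BAX and BAK open the outer mitochondrial membrane unless BCL2 or BCL-XL (the product of Bcl2l1) restrains them, and released cytochrome c joins APAF1 in the apoptosome that activates caspase-9. The immature brain is known for a strong apoptotic component in hypoxic-ischemic cell death.

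The 75th percentile signal of an array lay between 920 and 1258, and 65.1% to 73.7% of its spots were well above background. Arrays of the same group correlated at 0.982 to 0.995. The 4 groups were on 4 different slides, and slide and group cannot be told apart in any comparison. Markers of other cell types moved with injury. At a limma adjusted p under 0.05, 24.9% of all named genes rose and 30.5% fell in saline pups. In MCI-186 pups 25.6% rose and 31.5% fell. All 11 measured microglia and macrophage markers rose in both treatment arms, with summed levels of 258 to 371 in Rice + saline pups against 29.4 to 38.1 in Control + saline pups, and 204 to 378 in Rice + MCI-186 pups against 34.5 to 39.8 in Control + MCI-186 pups. All 8 measured neuron markers fell in both arms, with sums of 77.9 to 117 in Rice + saline pups against 182 to 211 in Control + saline pups, and 84.5 to 131 in Rice + MCI-186 pups against 196 to 202 in Control + MCI-186 pups. All 6 reactive astrocyte markers and all 5 tested T cell markers also rose in both arms. Their sums were 58.5 to 104 and 2.56 to 3.72 in Rice + saline pups against 8.28 to 9.36 and 0.779 to 1.11 in Control + saline pups, and 54.4 to 112 and 2.01 to 3.53 in Rice + MCI-186 pups against 8.00 to 8.45 and 0.987 to 1.28 in Control + MCI-186 pups. Of 4 tested neutrophil markers, 4 rose in saline and 1 in MCI-186 pups. None passed for MCI-186 against saline in injured pups or for a difference between arms, so the arms are not shown to differ. Neutrophil sums were 0.236 to 1.35 in Rice + saline pups against 0.0598 to 0.126 in Control + saline pups, and 0.305 to 0.337 in Rice + MCI-186 pups against 0.0926 to 0.190 in Control + MCI-186 pups. Of 7 endothelial markers, 3 rose and 2 fell in each arm, with lower sums after injury, 30.9 to 32.3 in Rice + saline pups against 36.7 to 38.8 in Control + saline pups and 31.1 to 34.7 in Rice + MCI-186 pups against 38.3 to 39.9 in Control + MCI-186 pups. These sums are linear signals over the 75th percentile of the array, and no microglia or neuron marker was below background on every array of a group. In each control group, 2 T cell markers and 1 reactive astrocyte marker were not well above background on any array, as was 1 neutrophil marker in Control + saline pups. These T cell markers, Cd4 and Cd8a, and the neutrophil marker, Csf3r, entered the test only through the injured groups, so their calls support nothing. A reactive astrocyte marker that was dim in all controls is limited likewise. In bulk cortex, fewer cells of a type and less RNA per cell cannot be told apart, and the part of changing cell types in the results below was not tested.

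RefSeq promoter windows of the GRCr8 assembly, 250 bases before to 50 bases after an annotated start, were matched to 7 of the 9 genes. No window was matched to Casp8 or Bax. Shown are the windows of 3 genes that rose with injury in both arms, Fas, Tnfrsf1a and Bid, and of 2 mitochondrial members that did not, Bcl2 and Apaf1. Capitals mark matches, on either strand, to letter patterns of inflammatory and interferon-responsive elements. These were kappaB-like (GGG and CC with 5 bases between), GAS-like (TTC and GAA with 3 bases between) and ISRE-like (GAAA and GAAA with 2 bases between).
Fas (chr1:241211905-241212204, plus strand): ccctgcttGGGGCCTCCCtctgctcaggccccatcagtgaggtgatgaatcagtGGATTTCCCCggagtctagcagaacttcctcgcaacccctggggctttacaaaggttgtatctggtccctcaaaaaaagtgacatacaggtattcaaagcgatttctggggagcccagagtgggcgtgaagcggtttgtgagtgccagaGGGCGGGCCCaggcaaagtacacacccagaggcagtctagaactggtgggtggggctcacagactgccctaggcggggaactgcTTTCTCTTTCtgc
Tnfrsf1a (chr4:159836869-159837168, plus strand): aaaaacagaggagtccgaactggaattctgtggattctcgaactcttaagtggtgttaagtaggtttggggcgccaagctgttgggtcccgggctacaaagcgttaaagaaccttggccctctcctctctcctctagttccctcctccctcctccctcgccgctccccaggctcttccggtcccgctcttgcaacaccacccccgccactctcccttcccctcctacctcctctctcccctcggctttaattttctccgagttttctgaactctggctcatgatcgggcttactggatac
Bid (chr4:155808270-155808569, minus strand): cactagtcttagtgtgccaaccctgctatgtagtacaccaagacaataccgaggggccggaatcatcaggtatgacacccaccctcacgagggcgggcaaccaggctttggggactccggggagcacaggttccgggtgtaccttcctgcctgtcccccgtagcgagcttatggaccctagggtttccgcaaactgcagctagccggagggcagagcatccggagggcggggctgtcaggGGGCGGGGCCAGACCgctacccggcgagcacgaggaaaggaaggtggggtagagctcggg
Bcl2 (chr13:23366851-23367150, minus strand): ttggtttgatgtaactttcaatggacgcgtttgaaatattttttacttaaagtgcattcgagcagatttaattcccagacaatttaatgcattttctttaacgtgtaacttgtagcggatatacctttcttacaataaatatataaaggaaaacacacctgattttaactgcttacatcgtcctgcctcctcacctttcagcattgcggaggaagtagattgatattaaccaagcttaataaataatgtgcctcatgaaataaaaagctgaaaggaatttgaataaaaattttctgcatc
Apaf1 (chr7:27466723-27467022, minus strand): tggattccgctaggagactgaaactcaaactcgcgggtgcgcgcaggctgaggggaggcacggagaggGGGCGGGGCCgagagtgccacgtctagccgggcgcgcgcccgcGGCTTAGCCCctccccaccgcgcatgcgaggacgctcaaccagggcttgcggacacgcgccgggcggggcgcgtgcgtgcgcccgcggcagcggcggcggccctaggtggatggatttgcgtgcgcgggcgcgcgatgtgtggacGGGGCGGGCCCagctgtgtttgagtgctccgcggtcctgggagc

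The Fas window held 3 kappaB-like matches, of which the match beginning 47 bases before the start overlapped a GC box (GGGCGG). It also held 1 ISRE-like match, on the opposite strand, beginning 37 bases after the start. The Bid window held 2 kappaB-like matches that overlap each other, at 10 and 5 bases before the start, the first also overlapping a GC box. Neither the Tnfrsf1a nor the Bcl2 window held any of the 3 patterns, and Bcl2 held a TATAAA match 109 bases before the start. Among all 33469 RefSeq windows, 47.3% held the kappaB-like, 8.87% the GAS-like and 3.92% the ISRE-like pattern, 33.1% a GC box and 14.2% TATAAA. Among the members with a window, which leaves out Casp8 and Bax, the patterns did not separate those called higher in both arms from the others. Apaf1 and Casp9 had 4 kappaB-like matches each, some overlapping, more than Fas or Bid, and of 4 Bcl2l1 windows 1 held 2 kappaB-like matches and 2, which overlap each other, held the same 2 GAS-like matches. A match describes letters in the window and is not evidence of binding.

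With injury, the member genes of the receptor side (Fas, Tnfrsf1a and Casp8) and Bid rose in both treatment arms, while the mitochondrial members changed little or did not pass. In pups given saline, limma called 8 of the 13 member probes at an adjusted p under 0.05, 6 higher and 2 lower, where 49.5% of all tested probes were called, 19.4% higher and 30.1% lower. In pups given MCI-186 it called 5, all higher, where 51.8% were called, 20.4% higher and 31.4% lower. The 5 were the probes of Fas, Tnfrsf1a, Casp8 and Bid. Among them, Fas probe A_44_P463745 was well above background only in injured pups and entered the test through those groups. Without it the calls were 7 of 12 probes in saline pups, 5 higher and 2 lower, and 4 of 12 in MCI-186 pups. The median change of the 13 probes was 0.22 in saline pups and 0.02 in MCI-186 pups on the log2 scale, against medians over all tested probes of -0.14 and -0.13. Without that Fas probe it was 0.15 and 0.01. Rice and control pups did not overlap for 7 member probes that were higher and 2 that were lower in saline pups, where 22.4% and 34.9% of all probes did so. In MCI-186 pups the counts were 5 higher and 2 lower, where 24.8% and 40.9% of all probes did so. Leaving out that Fas probe, these counts of higher probes were 6 in saline pups and 4 in MCI-186 pups.

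**Figure D1:**
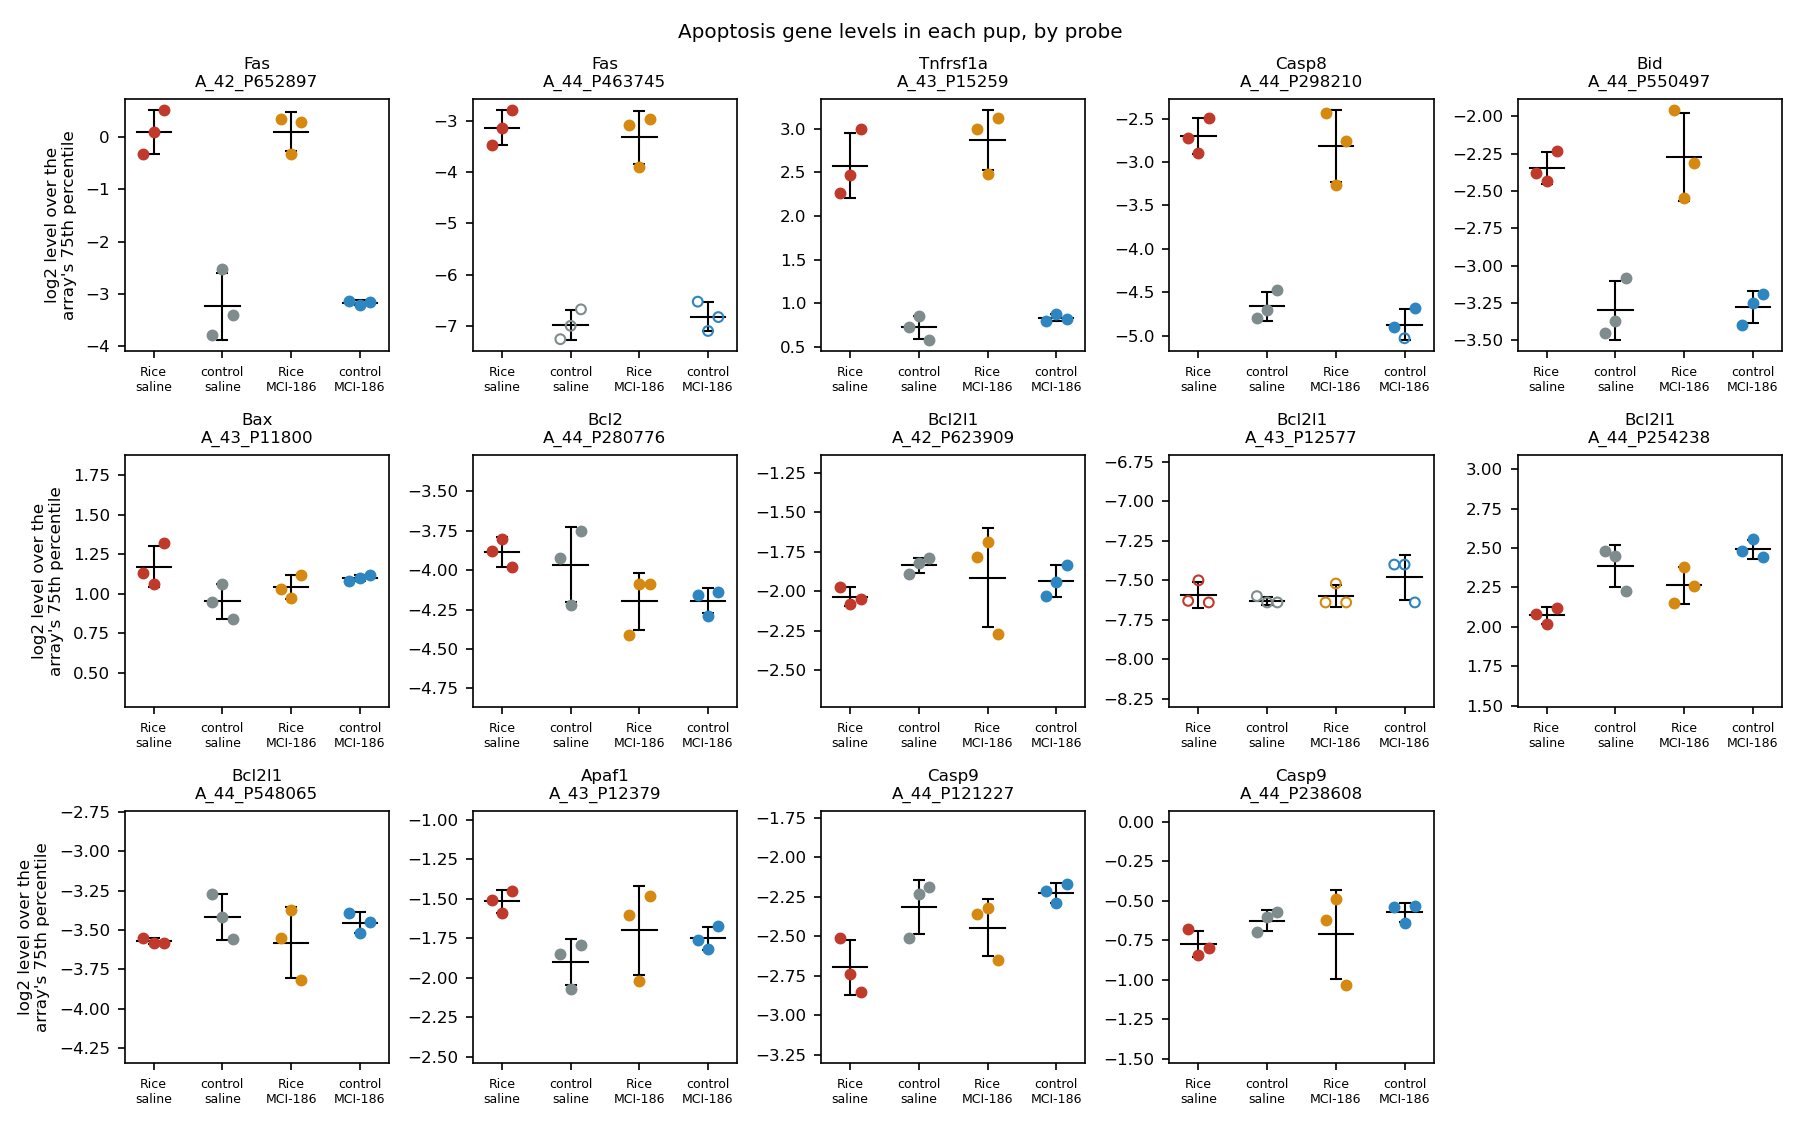
Level of each of the 14 probes in every pup, as log2 of the signal over the 75th percentile of its array (vertical axes differ between panels), with 1 point per pup and the mean ± SD of 3 pups. Open points were not well above background. The Rice groups lie above the controls for Fas, Tnfrsf1a, Casp8 and Bid in both arms, while the other probes differ little or overlap.

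Fas encodes the receptor for FAS ligand and lies on chromosome 1 from 241212155 to 241245774 (GRCr8). Levels are given throughout as log2 of the signal over the 75th percentile of the array, so 0 equals that percentile and 1 unit is a factor of 2. Probe A_42_P652897 read -0.32, 0.10 and 0.51 in Rice + saline pups, against -3.78, -2.53 and -3.41 in Control + saline pups. It read 0.35, -0.33 and 0.28 in Rice + MCI-186 pups, against -3.13, -3.21 and -3.16 in Control + MCI-186 pups. Every injured pup lay well above every control in both arms. The injury change was 3.33 ± 0.31 in saline pups, a 10.1-fold increase, and 3.27 ± 0.31 in MCI-186 pups, a 9.63-fold increase (log2 ± SE, n = 3 each, limma adjusted p = 3.28e-05 and 3.46e-05). The other Fas probe, A_44_P463745, was well above background in all 6 injured pups and in none of the 6 controls. It read -3.48, -3.15 and -2.80 in Rice + saline pups, against -7.25, -6.99 and -6.67 in Control + saline pups. On this scale it was at least 6.40-fold higher in Rice + saline pups (means -3.14 and -6.97). In Rice + MCI-186 pups it was at least 4.58-fold higher (means -3.33 and -6.81). These bounds hold only for this background treatment. Normexp background correction, which adds an offset, gave smaller changes of 1.22 and 1.06 on the log2 scale in the saline and MCI-186 arms. This probe was bright enough to be tested only through the injured groups, so it had to differ, and its call supports nothing. The bounds take as the control level the dimmest signal called well above background on each control array, or the probe's own signal where that was higher.

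Tnfrsf1a encodes TNFR1, the main death receptor for tumour necrosis factor, and lies on chromosome 4 from 159837119 to 159849817. It read 2.26, 2.47 and 2.99 in Rice + saline pups, against 0.73, 0.85 and 0.58 in Control + saline pups. In MCI-186 pups it read 3.00, 2.48 and 3.12 after injury, against 0.80, 0.88 and 0.82 in controls. The groups did not overlap in either arm. The change was 1.85 ± 0.20 in saline pups and 2.03 ± 0.20 in MCI-186 pups, or 3.61-fold and 4.09-fold (log2 ± SE, n = 3 each, limma adjusted p = 8.07e-05 and 4.07e-05).

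Casp8 encodes the initiator caspase of the death receptor complex and lies on chromosome 9 from 67747109 to 67806699. It read -2.72, -2.90 and -2.49 in Rice + saline pups, against -4.80, -4.70 and -4.48 in Control + saline pups. Its readings in MCI-186 pups were -2.44, -3.26 and -2.76 after injury, against -4.90, -5.03 and -4.68 in controls, where 2 of 3 arrays were well above background. All injured pups were above all controls. The change was 1.96 ± 0.20 and 2.05 ± 0.20 in the saline and MCI-186 arms, or 3.88-fold and 4.14-fold (log2 ± SE, n = 3 each, limma adjusted p = 5.52e-05 and 3.73e-05).

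Bid, whose product carries the caspase-8 signal to mitochondria, lies on chromosome 4 from 155785366 to 155808775. It read -2.38, -2.43 and -2.23 in Rice + saline pups, against -3.45, -3.37 and -3.08 in Control + saline pups. With MCI-186 it read -1.96, -2.55 and -2.31 after injury, against -3.40, -3.25 and -3.19 in controls. The groups were again separate in both arms. The change was 0.95 ± 0.15 and 1.01 ± 0.15 in the saline and MCI-186 arms, or 1.94-fold and 2.01-fold (log2 ± SE, n = 3 each, limma adjusted p = 0.000833 and 0.000538). With normexp background correction, which adds an offset and shrinks dim signals, the saline changes of Bid and Casp8 were 0.55 and 1.00, and both still passed.

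Within the injured pups these 4 genes followed the marker sums in part. Rice + MCI-186 replicate 2 had the lowest microglia sum of the 6, 204, and the highest neuron sum, 131. It also had the lowest Casp8 and Bid readings and, narrowly, the lowest Fas reading (-0.33, against -0.32 in Rice + saline replicate 1). Its Tnfrsf1a reading, 2.48, was not the lowest, with 2.26 and 2.47 in Rice + saline replicates 1 and 2. This pup was also lowest in the sums of the reactive astrocyte markers, 54.4, and of the T cell markers, 2.01. Whether any cell type accounts for the order was not tested. The injured pups with microglia sums of 371, 376 and 378 had the 3 highest Fas, Tnfrsf1a and Bid readings. Casp8 broke that order, at -2.76 in the pup with 378 and -2.72 in the pup with 267. Over the 12 pups, Fas correlated with Tnfrsf1a at r = 0.983, with Casp8 at 0.973 and with Bid at 0.954. These values describe 12 arrays that fall into injured and control clusters.

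**Figure D2:**
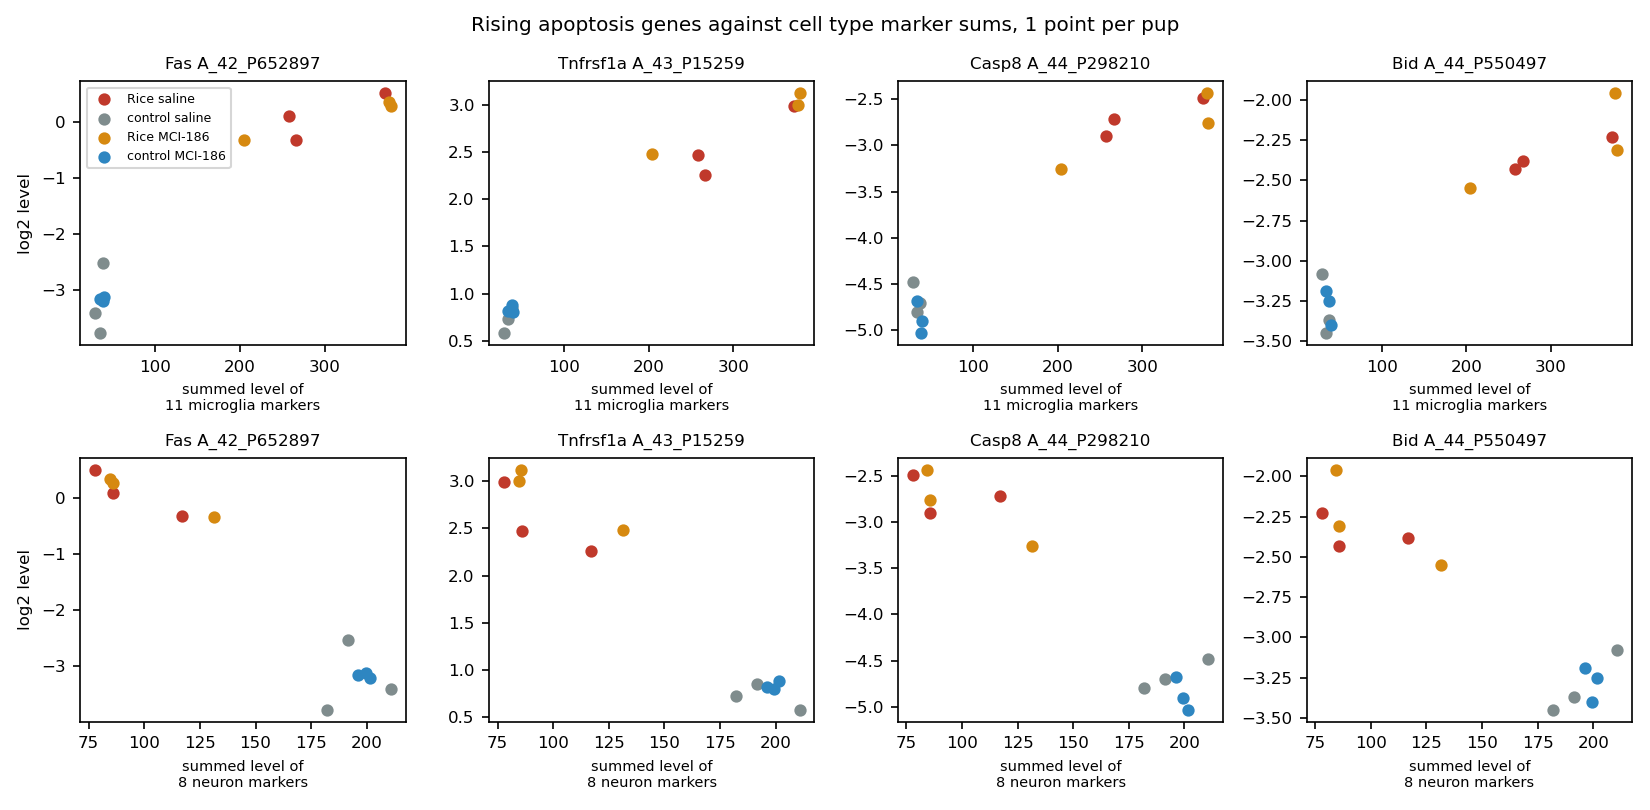
Level of Fas, Tnfrsf1a, Casp8 and Bid (vertical axes, log2 over the 75th percentile) against the summed linear level of 11 microglia and macrophage markers (top) and of 8 neuron markers (bottom), 1 point per pup. Injured pups sit at microglia sums of 204 to 378 and controls at 29.4 to 39.8, with no pup in between.

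**Figure D3:**
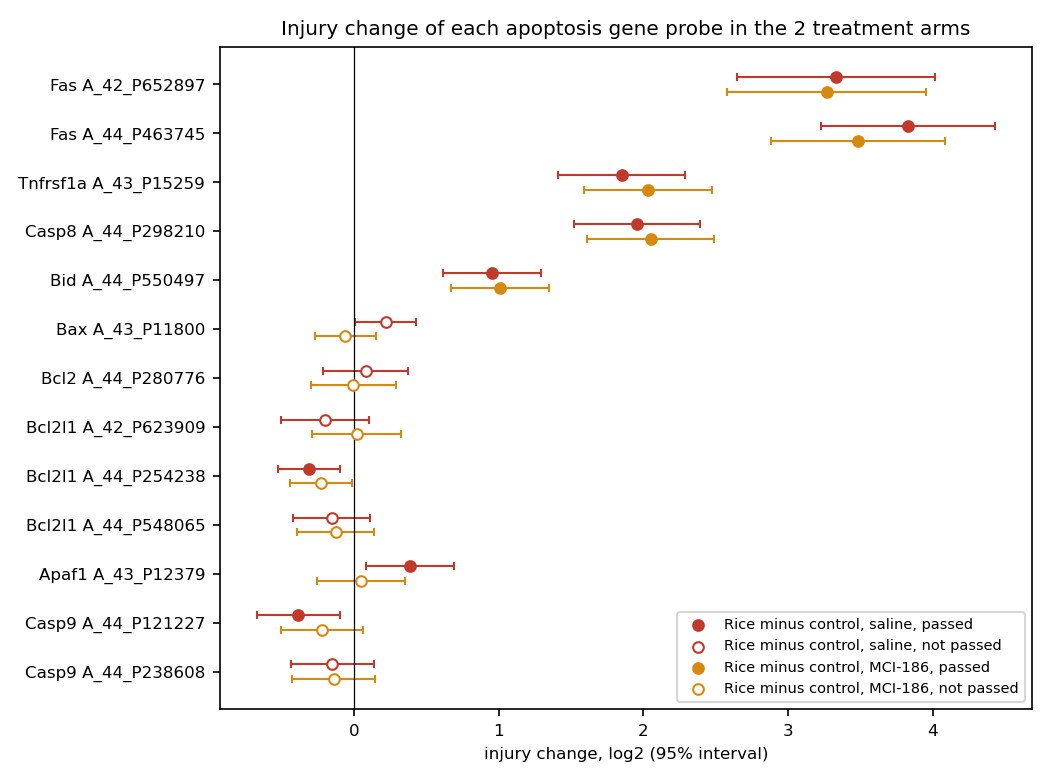
Injury change of the 13 tested probes (Rice minus control, log2) in the saline and the MCI-186 arm, with 95% intervals. Filled points passed limma's adjusted p of 0.05. The 5 probes of Fas, Tnfrsf1a, Casp8 and Bid lie far to the right in both arms, and the other 8 lie between -0.38 and 0.39.

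Bax, which forms the pore in the outer mitochondrial membrane, lies on chromosome 1 from 105076472 to 105081906. It read 1.13, 1.06 and 1.32 in Rice + saline pups, against 0.95, 1.06 and 0.84 in Control + saline pups. In MCI-186 pups it read 1.03, 0.97 and 1.12 after injury, against 1.08, 1.10 and 1.12 in controls. The saline groups met at 1.06 without overlapping and the MCI-186 groups overlapped. The differences of 0.22 ± 0.09 and -0.06 ± 0.09 did not pass (log2 ± SE, n = 3 each, limma adjusted p = 0.0752 and 0.619), with 95% intervals of 0.01 to 0.43 and -0.27 to 0.15. The probe is printed on 10 spots, whose SD within an array was 0.0286 to 0.0743, beside an SD between pups of a group of 0.0206 to 0.131.

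Bcl2, the founding pro-survival member of its family, lies on chromosome 13 from 23204464 to 23366900. It read -3.88, -3.80 and -3.98 in Rice + saline pups, against -3.92, -4.22 and -3.75 in Control + saline pups. Under MCI-186 it read -4.41, -4.09 and -4.09 after injury, against -4.16, -4.29 and -4.14 in controls. The groups overlapped in both arms. The differences were 0.08 ± 0.13 and 0.00 ± 0.13 (log2 ± SE, n = 3 each, limma adjusted p = 0.634 and 0.989), with intervals of -0.21 to 0.38 and -0.30 to 0.29. Its 10 spots had an SD within an array of 0.068 to 0.197.

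Bcl2l1, which encodes BCL-XL, lies on chromosome 3 from 161713777 to 161764844 and had 3 tested probes. Probe A_44_P254238, designed on accession NM_001033670, read 2.08, 2.02 and 2.12 in Rice + saline pups, against 2.48, 2.45 and 2.23 in Control + saline pups. In MCI-186 pups it read 2.15, 2.38 and 2.26 after injury, against 2.48, 2.56 and 2.44 in controls. Injured pups lay below controls in both arms, narrowly so. It fell by 0.31 ± 0.10 in saline pups (SE, n = 3 each, limma adjusted p = 0.0217), and the difference of -0.23 ± 0.10 in MCI-186 pups did not pass (limma adjusted p = 0.0693). The other 2 probes were designed on accession NM_031535. Probe A_42_P623909 differed by -0.20 in saline pups and 0.02 in MCI-186 pups, and A_44_P548065 by -0.15 and -0.13, none of which passed. The lone call was lost under quantile normalization (limma adjusted p = 0.0788), with only its 2 groups in the fit (0.0659) and without any of 3 saline pups (control replicate 1 or 2, or Rice replicate 2).

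Apaf1, the scaffold of the apoptosome, lies on chromosome 7 from 27381392 to 27466772. It read -1.51, -1.59 and -1.45 in Rice + saline pups, against -1.85, -2.07 and -1.79 in Control + saline pups. Readings under MCI-186 were -1.60, -2.02 and -1.48 after injury, against -1.76, -1.82 and -1.67 in controls. The saline groups were separate and the MCI-186 groups overlapped. Apaf1 rose by 0.39 ± 0.14 in saline pups (log2 ± SE, n = 3 each, limma adjusted p = 0.0370), and its difference of 0.05 ± 0.14 in MCI-186 pups did not pass (limma adjusted p = 0.773). The call was lost with scaling to the array median (limma adjusted p = 0.0800), under 2 other settings and without any of 7 arrays, with adjusted p up to 0.130 without Control + saline replicate 2.

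Casp9, the caspase that the apoptosome activates, lies on chromosome 5 from 159391907 to 159410341 and had 2 probes. Probe A_44_P121227 read -2.51, -2.74 and -2.85 in Rice + saline pups, against -2.51, -2.23 and -2.19 in Control + saline pups. In MCI-186 pups it read -2.36, -2.32 and -2.65 after injury, against -2.21, -2.29 and -2.17 in controls. It fell by 0.38 ± 0.13 in saline pups although a Rice and a control reading met at -2.51 (log2 ± SE, n = 3 each, limma adjusted p = 0.0306), and differed by -0.22 ± 0.13 in MCI-186 pups (limma adjusted p = 0.175). Probe A_44_P238608, designed on the same accession, differed by -0.15 and -0.14, and neither passed. The saline call was lost when only its 2 groups entered the fit (limma adjusted p = 0.0703) and without any of 4 saline pups, at adjusted p up to 0.108. The number of called members in saline pups fell to 5 without Control + saline replicate 2 or without Rice + saline replicate 2.

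MCI-186 was then set against saline. In injured pups limma called 0 of 13 member probes and 0 of 28513 probes in all (0%), with 1 member probe and 727 probes in all at an unadjusted p under 0.05. The member was Bcl2, which read -4.41, -4.09 and -4.09 in Rice + MCI-186 pups, against -3.88, -3.80 and -3.98 in Rice + saline pups. Those groups did not overlap, and the difference was -0.31 ± 0.13 (log2 ± SE, n = 3 each, limma adjusted p = 0.99999). Bcl2 differed by -0.23 ± 0.13 between MCI-186 and saline controls as well (limma adjusted p = 0.738), so its mean was lower on both MCI-186 slides. The only other member probe without overlap was Bcl2l1 A_44_P254238, higher by 0.19 ± 0.10 in Rice + MCI-186 pups, where 4.73% of all probes did not overlap. For Fas, the difference of 0.01 had a 95% interval of -0.68 to 0.69. The interval for Tnfrsf1a was -0.15 to 0.73, for Casp8 -0.55 to 0.32 and for Bid -0.27 to 0.41. A p that misses the threshold does not show equal levels.

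In controls limma called 0 of 13 member probes for MCI-186, where 0.126% of all probes were called, and 0 had an unadjusted p under 0.05. Bax was the only member whose control groups did not overlap (24.1% of all probes did not), at 1.08, 1.10 and 1.12 in Control + MCI-186 pups, against 0.95, 1.06 and 0.84 in Control + saline pups (difference 0.15 ± 0.09, SE, n = 3 each, limma adjusted p = 0.769). The test of whether the injury change itself differed between arms called 0 of 13 members, where 0.0175% of all probes were called, and 0 members had an unadjusted p under 0.05. The difference between arms was -0.28 for Bax (95% interval -0.58 to 0.02) and -0.34 for Apaf1 (-0.77 to 0.09). The injury calls of Apaf1, Casp9 and Bcl2l1 in saline pups are therefore not shown to differ from the MCI-186 arm.

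The other genes of the pathway were taken from a list of 61, of which 49 had a probe and 45 were tested by their brightest probe. With injury, 22 rose and 7 fell in saline pups, and 21 rose and 6 fell in MCI-186 pups. Among all named genes 24.9% rose and 30.5% fell in saline pups, and 25.6% rose and 31.5% fell in MCI-186 pups. The median change of the 45 was 0.36 and 0.25 on the log2 scale, against -0.09 and -0.08 over all named genes. Limma called 0 of the 45 for MCI-186 in injured pups, in controls or in the difference between arms, with 3, 5 and 3 of them at an unadjusted p under 0.05.

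Ligand readings were dim. Faslg, the FAS ligand, was tested and differed by 0.12 in saline and 0.08 in MCI-186 pups, without passing. Tnf, Tnfsf10 (TRAIL) and Lta did not reach the brightness required for a test. Tnf read -5.92, -5.88 and -5.20 in Rice + saline pups, against -7.05, -7.32 and -7.44 in Control + saline pups, with 1 of those 6 arrays well above background. It read -5.47, -4.95 and -6.27 in Rice + MCI-186 pups, of which 2 arrays were well above background, against -7.02, -7.14 and -7.27 in Control + MCI-186 pups, of which none was. Other genes of the tumour necrosis factor receptor family were also tested. Tnfrsf21 differed by 0.04 and 0.07 and Ngfr by -0.01 and -0.08 in the saline and MCI-186 arms. Of the 5 tested, only Tnfrsf1b passed. It encodes TNFR2, a tumour necrosis factor receptor without a death domain, and rose by 2.33 ± 0.22 in saline and 2.26 ± 0.22 in MCI-186 pups (log2 ± SE, n = 3 each, limma adjusted p = 3.08e-05 and 3.55e-05).

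Of 6 receptor adaptors and kinases, 3 rose and 1 fell in each arm. The riser with the lowest p was Ripk3, the kinase of necroptosis, at 1.82, 1.65 and 2.59 in Rice + saline pups, against -1.11, -0.93 and -1.42 in Control + saline pups, a change of 3.17 ± 0.24 (limma adjusted p = 9.97e-06). Its change was 3.37 in MCI-186 pups. Ripk1, its partner kinase, rose by 0.83 and 0.90, and the adaptor Traf2 by 0.80 and 0.79 in the saline and MCI-186 arms. Cflar, whose product FLIP blocks caspase-8 activation, went the other way. It read 1.92, 1.81 and 1.78 in Rice + saline pups, against 2.61, 2.66 and 2.51 in Control + saline pups, and fell by 0.76 ± 0.10 there and by 0.91 ± 0.10 in MCI-186 pups (limma adjusted p = 0.000212 and 6.34e-05).

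Of 7 other caspases, 6 rose in saline and 5 in MCI-186 pups, and the largest changes were in inflammatory caspases. Casp4 rose by 2.82 and 2.76, Casp12 by 2.55 and 2.69 and Casp1 by 2.20 and 2.17 on the log2 scale in the saline and MCI-186 arms. Casp6, an executioner caspase, rose by 1.01 and 1.06.

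Among 4 other pro-survival BCL2 family genes, 2 rose and 2 fell in each arm. Bcl2a1, a pro-survival gene of blood cells and microglia, rose by 2.83 and 2.78 and Mcl1 by 0.61 and 0.53 in the saline and MCI-186 arms. The other Mcl1 probe differed by 0.20 and 0.21 and passed in neither arm (limma adjusted p = 0.0820 and 0.0625). Bcl2l2, which encodes BCL-W, fell by 0.97 and 0.79 and Bcl2l10 by 0.49 and 0.43. Both pore-forming relatives of Bax rose, Bak1 by 0.65 and 0.44 and Bok by 0.47 and 0.43. Of 8 BH3-only genes, whose products start the mitochondrial route, 4 rose and 1 fell in saline pups and 3 rose and 1 fell in MCI-186 pups. Bmf rose by 1.92 and 1.35 and Bik by 1.44 and 1.17, and Bnip3 fell by 0.61 and 0.70. Bcl2l11, which was dim, rose by 0.75 in MCI-186 pups (limma adjusted p = 0.000697). Its difference of 0.27 in saline pups did not pass (limma adjusted p = 0.0802). Hrk rose by 1.03 in saline pups, and its difference of 0.48 in MCI-186 pups did not pass. The other Hrk probe passed in both arms, at 1.04 and 0.71. Neither gene was called for a difference between arms.

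Of 5 genes for proteins that mitochondria release, 2 fell and 0 rose in each arm. Of all named genes, 30.5% fell in saline pups and 31.5% in MCI-186 pups. Cytochrome c, Cycs, fell by 0.84 and 0.88, and the nuclease Endog fell by 0.71 and 0.54. Both other Cycs probes fell too, and the falls stood beside the fall of the neuron markers given above. Among 4 inhibitor of apoptosis genes, 2 rose in saline and 3 in MCI-186 pups, led by Birc3, which encodes cIAP2 downstream of TNF receptors, at 2.69 and 2.89. Of 3 nuclease and substrate genes, Parp1 rose by 0.55 and 0.25 and gelsolin, Gsn, by 0.74 and 0.39. By its brightest probe, the nuclease inhibitor Dffa fell by 0.53 in saline pups. That probe differed by -0.24 in MCI-186 pups, which did not pass (limma adjusted p = 0.141). The other Dffa probe passed in both arms, with changes of -0.40 and -0.33 (limma adjusted p = 0.0222 and 0.0458).

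**Figure D4:**
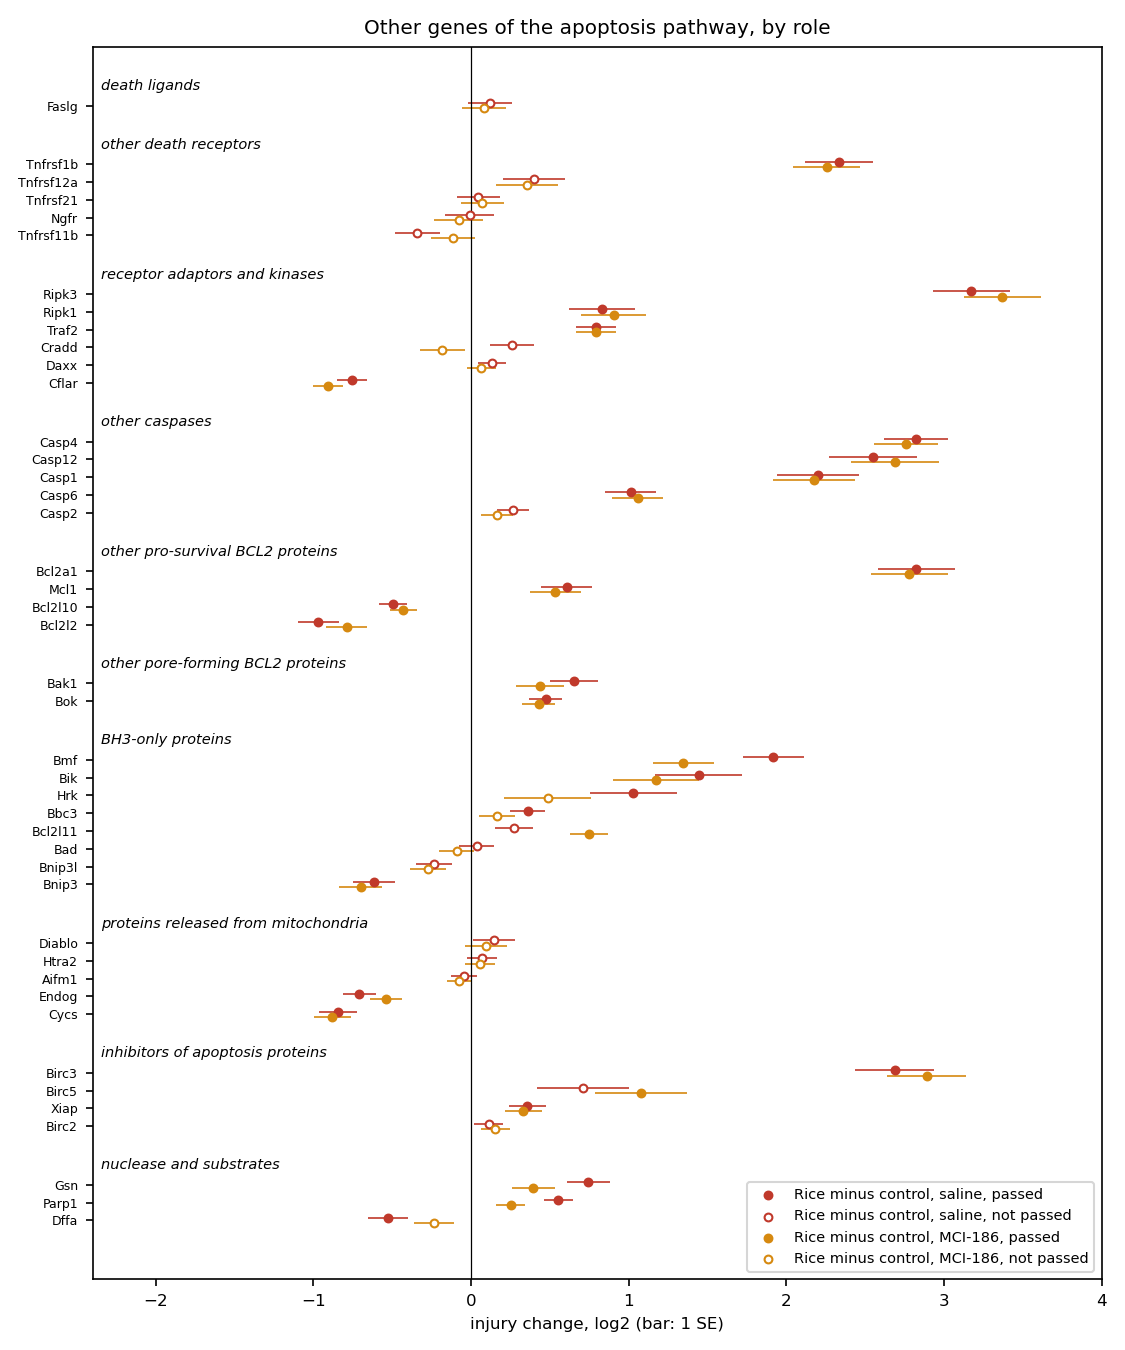
Injury change (Rice minus control, log2, bar 1 SE) of 43 other pathway genes by role, in the saline and MCI-186 arms. Filled points passed limma's adjusted p of 0.05. Ripk3, Casp4, Bcl2a1 and Birc3 lie above 2.6 in both arms, and Cflar, Bcl2l2 and Cycs lie below -0.7.

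The genes whose levels over the 12 arrays were most like each member were found by Pearson r among 11841 probes of named genes. For the rising members they were Itih1 for Fas (r = 0.997), Tlr2 for Tnfrsf1a (0.997), Akna for Casp8 (0.995) and Tpm4 for Bid (0.993). For the rest they were Gamt for Bax (0.933), Nfat5 for Bcl2 (0.861), Naxd for Bcl2l1 (0.962), Ncbp3 for Apaf1 (0.904) and Usp19 for Casp9 (0.950). The arrays form an injured and a control cluster, and for the first 4 members the r is taken across that gap.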

How the data were processed

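The labels gave the group and replicate number of each of the 12 arrays. Per the file headers, the scanner intensity of each spot was extracted with Agilent Feature Extraction 9.5.3.1, which subtracted background and left a linear scale. A second deposited table gives log2 values, each probe centred over the arrays. Its columns correlated with the recomputed and centred values at 0.953 to 0.993 over all shared probes, and at 0.998 to 0.9998 over the tested ones, which settled scale, centring and direction. The authors' steps for that table are not given in the sources used here.

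Each signal was set over the 75th percentile of its array, taken over spots that are not controls, floored at 0.005 of it and taken to log2. Averages over the spots of a probe left out control and outlier spots (193 missing values). Log2 changes of genes near the floor understate their change. A probe was tested if some group had it well above background on every array, as held for 28518 of 41012. Symbols came from RefSeq accessions of GRCr8 (15184 probes with 1 symbol, 25828 unnamed). Probe positions within transcripts were not analysed here.

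Group means were fitted with limma 3.58.1 in R 4.3.3 on all 12 arrays (8 residual and 2.53 prior degrees of freedom), checked on simulated data. Benjamini-Hochberg adjustment ran over all probes of a contrast, and 0.05 was the threshold. P-values measure only the spread between these pups. Alternatives were normexp background correction, quantile or median scaling, other filters, the deposited table, 1 probe per gene, only the groups of a contrast, a replicate block and leaving out each array. The 9 genes and all lists were chosen with earlier results of these data known. All member probes are named, and from each other role group up to 3 genes with the lowest p among those that passed, with others as examples of its range. The listed genes without a matched probe (Tnfrsf10b, Tnfrsf25, Edar, Fadd, Tradd, Mlkl, Cyld, Casp14, Pmaip1, Birc6, Naip6, Xaf1) were not analysed here, and Dffb was too dim to test. Results for a few listed genes are not reported here, though the counts include them.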

Additional observations from a re-analysis of the deposited data

How the results depend on the processing

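Fas probe A_42_P652897 and the probes of Tnfrsf1a, Casp8 and Bid passed in both arms under every alternative in which they were tested. Saline changes were 2.62 to 3.69 for that Fas probe, 1.64 to 2.01 for Tnfrsf1a, 1.00 to 2.06 for Casp8 and 0.55 to 1.06 for Bid. Normexp gave the lowest of these for Fas, Casp8 and Bid. For Fas probe A_44_P463745 it gave 1.22 and 1.06 in the saline and MCI-186 arms. That probe was tested only through the injured groups, so its passing supports nothing. Normexp ran on the median spot signal, as the mean signal was not used here. Over 65 member results and 1321 alternative values, 1295 stayed on their side of the threshold, 21 lost a call, 5 gained one and 0 reversed. This total includes the MCI-186 contrasts and the difference between arms, in which no member was called under any setting. Every lost call was a saline injury call of Apaf1, Casp9 A_44_P121227 or Bcl2l1 A_44_P254238. Bax passed in saline pups under quantile normalization (0.27, adjusted p = 0.0327), and Bcl2l1 A_44_P254238 in MCI-186 pups under normexp and median scaling and without either of 2 arrays.

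The number of called members in saline pups was 5 to 8 when an array was left out, and in MCI-186 pups 5 to 6. Requiring signal on all 12 arrays left 3 in MCI-186 pups, since Casp8 and Fas A_44_P463745 were no longer tested. Over all probes, MCI-186 in injured pups gave 1 call with no filter and 0 to 6 without an array. MCI-186 in controls gave 36, against 13 with normexp, 18 with the stricter filter, 57 with only its groups, 19 with the replicate block, and 19 to 59 without an array. The difference between arms gave 5, against 2 with normexp, 8 with quantile normalization, 3 with the stricter filter, 3 with the replicate block, and 3 to 20 without an array. Deviations of same-numbered pups from their group means correlated at r of -0.285 to 0.544, highest between Rice + saline and Rice + MCI-186 replicate 3. Differently numbered pups were not compared, so whether the numbers mark pairs was not tested. The replicate block ended the saline call of Casp9 A_44_P121227 (adjusted p = 0.0529) and no other member call. A slide block was not run, since each slide holds 1 group. Dim probes, with control signals near background, limit the size of the Fas and Casp8 changes.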
